A study of Homo sapiens with 27 samples.

Results

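The data described here are the transcript levels of 10 genes of the integrated stress response, ATF4, DDIT3, DDIT4, ASNS, CHAC1, TRIB3, SESN2, PSAT1, PHGDH and VLDLR. They were listed by name as ATF4 and genes known as its targets, by a rule without measured values but with earlier results of these data known. Each was found as 1 of the 24566 rows of the count table by its Entrez identifier. All 10 passed the filter on low counts in every comparison of the main fits, VLDLR within A431 through the groups with doxorubicin. RNA was sequenced from 2 established human lines, MDA-MB-231 (breast adenocarcinoma) and A431 (epidermoid carcinoma), in 27 libraries of 9 groups with 3 replicates each. All libraries were made at 48 h. MDA-MB-231 cells formed 4 groups, left untreated or given CKI, 5-FU or the 2 together (CKI plus 5-FU). A431 cells formed 5, left untreated or given a vehicle control, CKI, doxorubicin or CKI plus doxorubicin. CKI is Compound Kushen Injection, an aqueous extract of the roots of Kushen and Baituling, used here at 1 mg/ml (a dilution of 1 in 20). 5-FU, a pyrimidine analogue that blocks thymidylate synthase and enters RNA and DNA, was used at 10 µg/ml. Doxorubicin intercalates into DNA and poisons topoisomerase II. The labels do not assign its dose to a group, and they do not say what the vehicle was. Each line is a single tumour-derived culture, and nothing in the labels says that replicates came from separate cultures, so the p-values measure the spread between these libraries, which may be technical.

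The integrated stress response is the shared reply of cells to several stresses. Any of the kinases PERK, GCN2, PKR and HRI phosphorylates the initiation factor eIF2, general translation slows, and the ATF4 messenger is translated better because of upstream reading frames in its leader. ATF4 is a bZIP transcription factor which, with C/EBP partners, drives genes for amino acid synthesis and import, transfer RNA charging and, when stress lasts, the factor CHOP (the product of DDIT3). Because ATF4 is regulated largely at translation, its messenger is not a measure of its protein, and these data hold no protein measurement.

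The element through which ATF4 dimers act joins an ATF and a C/EBP part, and its core TGATGNAA was searched on both strands of the RefSeq promoter windows (build GRCh38.p14, 250 bases before to 50 after each start), with overlapping matches allowed. All 10 genes had at least 1 window. A match was found for 2 of the 10 genes, ASNS and CHAC1, against 4.46% of the 27305 genes in the table and 3.62% of its 35116 windows. Among the genes with a window in the pathway lists used further on, a match was held by 7 of 10 aminoacyl-tRNA synthetases, 4 of 7 amino acid transporters, 3 of 6 bZIP and stress factors, 2 of 6 amino acid synthesis genes, 1 of 11 eIF2 genes, 1 of 10 other ATF4 or CHOP targets and 1 of 10 ER chaperones. The 250 bases before the start are printed below for both genes with a match and for DDIT3, whose transcript moved opposite to that of ASNS under both cytotoxic drugs, as given further on. Capitals mark the match, which lies from -68 to -61 on the strand of the gene in ASNS and from -209 to -202 on the opposite strand in CHAC1. In DDIT3 these letters are not in this window, and bases further from the start were not searched, so an element there would be missed. DDIT4, PSAT1 and PHGDH also had no match, although they fell with both cytotoxic drugs like ASNS. A link between a match and the direction of change was not tested. The ASNS bases are chr7:97872409-97872658 (minus strand), the CHAC1 bases chr15:40953221-40953470 (plus strand) and the DDIT3 bases chr12:57520518-57520767 (minus strand).
ASNS: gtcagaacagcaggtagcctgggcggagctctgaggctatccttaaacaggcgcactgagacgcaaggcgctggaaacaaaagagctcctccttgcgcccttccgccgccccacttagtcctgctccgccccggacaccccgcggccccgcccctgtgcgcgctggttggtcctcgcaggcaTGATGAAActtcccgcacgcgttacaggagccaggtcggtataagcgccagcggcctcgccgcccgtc
CHAC1: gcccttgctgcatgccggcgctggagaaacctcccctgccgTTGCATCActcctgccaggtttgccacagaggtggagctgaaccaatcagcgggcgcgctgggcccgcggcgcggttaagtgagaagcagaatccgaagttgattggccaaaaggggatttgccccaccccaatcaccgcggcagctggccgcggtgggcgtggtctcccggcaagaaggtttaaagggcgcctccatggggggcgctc
DDIT3: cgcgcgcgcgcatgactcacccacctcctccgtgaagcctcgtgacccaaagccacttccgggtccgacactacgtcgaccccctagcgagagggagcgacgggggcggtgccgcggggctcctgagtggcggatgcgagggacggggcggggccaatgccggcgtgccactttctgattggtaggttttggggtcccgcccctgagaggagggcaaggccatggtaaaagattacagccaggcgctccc

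Levels are given as CPM, counts scaled to a common library size, after TMM scaling over all 27 libraries, and levels of different genes are compared only as TPM, the analogous unit in which counts are first divided by transcript length. In these bulk libraries, fewer cells expressing a gene and less RNA per cell cannot be told apart. Total counts were 17757206 to 21756536 in the A431 libraries and 19871048 to 22809339 in the MDA-MB-231 libraries, and 3 counts, the lowest level taken as detected, correspond to 0.132 to 0.169 CPM. The line labels were checked against marker genes. All 7 epidermal and epithelial markers (KRT5, KRT14, KRT6A, TP63, DSG3, CDH1 and EGFR) were higher in every A431 library than in every MDA-MB-231 library, and KRT5 was at 1430 CPM or more in A431 and at most 3.96 CPM in MDA-MB-231. Of 6 mesenchymal markers, VIM, ZEB1, AXL and MSN were higher in every MDA-MB-231 library than in every A431 library, with VIM at 713 CPM or more in MDA-MB-231 and at most 37.5 CPM in A431. The other two did not separate the lines, CD44 at 650 to 905 CPM in MDA-MB-231 and 522 to 1180 CPM in A431, and SPARC at most at 3.65 CPM in both. The first untreated MDA-MB-231 library stood apart from its replicates, with a median absolute difference of 0.311 to 0.34 log2 CPM over genes against 0.077 to 0.23 in the other 25 replicate pairs. The tests of the 10 genes in CKI or 5-FU against untreated MDA-MB-231 cells are given with and without it. A gene is called changed, and said to have risen or fallen, where the Benjamini-Hochberg adjusted p of edgeR's quasi-likelihood test was under 0.05 and the absolute log2 fold change over 1. Comparisons within a line share control libraries, so the values of different agents are set side by side and not correlated.

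**Figure D1:**
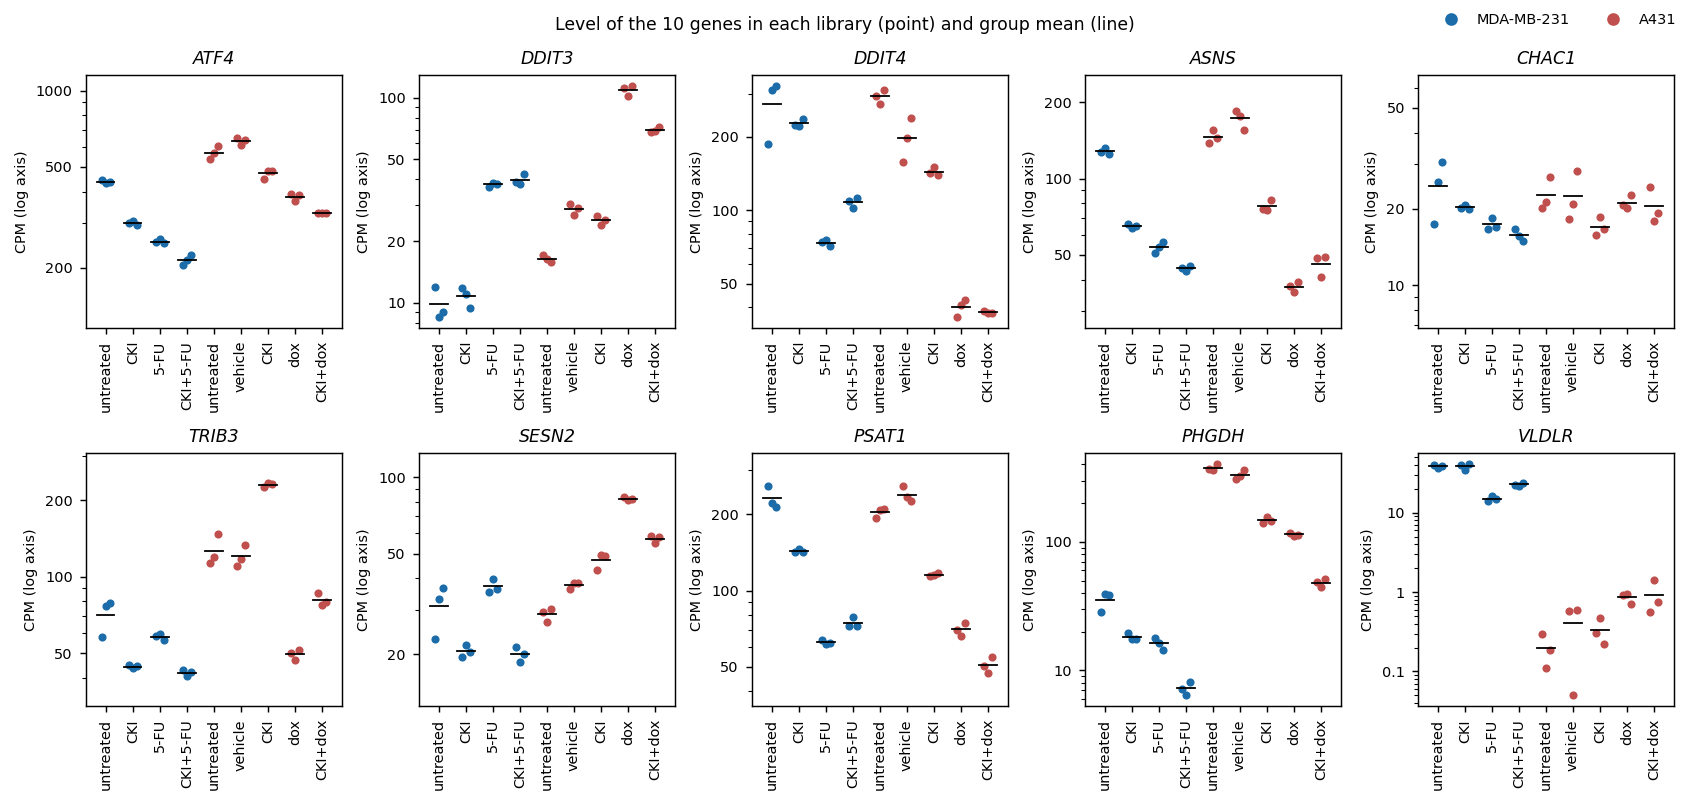
Level of each of the 10 genes (CPM, log axis, a separate scale in each panel) in 27 libraries of 9 groups, with points for the 3 replicates and a line at the group mean (blue, MDA-MB-231 and red, A431). DDIT3 is highest in the doxorubicin groups of A431, at 67.9 to 114 CPM, and VLDLR lies at 34.8 CPM or more in untreated and CKI-treated MDA-MB-231 and at most 1.43 CPM in A431.

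ATF4 lies on chromosome 22 (39915700 to 39918688, plus strand, GRCh37, 3 exons). Its messenger was the most abundant of the 10 per length in every library, at 325 to 865 TPM. In MDA-MB-231 the 3 untreated libraries held 443.7, 431.1 and 435.9 CPM, the CKI libraries 301, 305 and 296, the 5-FU libraries 252, 259 and 251, and the CKI plus 5-FU libraries 206, 215 and 224. In A431 the untreated libraries held 539, 566 and 605 CPM, the vehicle control libraries 650, 608 and 636, the CKI libraries 449, 483 and 482, the doxorubicin libraries 390, 368 and 387, and the combination libraries 329, 328 and 329. In CPM every drug group lay below the untreated group of its line with no overlap, and the 9 groups did not overlap with their neighbours in the order of levels. In TPM the A431 CKI libraries (684, 723 and 717) overlapped the untreated ones (693, 713 and 745). No change reached the fold threshold. The log2 fold change against untreated was -0.55 (SE 0.0508, adjusted p = 8.6e-06) for CKI and -0.78 (SE 0.051, adjusted p = 1.6e-07) for 5-FU in MDA-MB-231, and -0.54 and -0.77 without the first untreated library. In A431 it was -0.37 (SE 0.0552, adjusted p = 3.2e-06) for CKI and -0.61 (SE 0.0554, adjusted p = 9.7e-10) for doxorubicin. Over the other settings of the fit, the A431 values ranged from -0.52 to -0.05 for CKI and from -0.76 to -0.26 for doxorubicin. The vehicle control differed by 0.16 (SE 0.0551, adjusted p = 0.0252). With scaling by library size alone the doxorubicin value was -0.26, since this scaling moved the median of all genes by 0.34. ATF4 has processed pseudogenes (ATF4P1 to ATF4P4) with which reads could be shared.

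DDIT3 encodes CHOP, a C/EBP-family factor tied to cell death under lasting stress. It lies on chromosome 12 (57910371 to 57915520, minus strand, 4 exons). In MDA-MB-231 its untreated libraries held 11.9, 8.57 and 9.0 CPM, the CKI libraries 11.8, 11.0 and 9.48, the 5-FU libraries 36.8, 38.6 and 38.0, and the CKI plus 5-FU libraries 38.8, 37.8 and 42.3. In A431 the untreated libraries held 17.1, 16.4 and 15.8 CPM, the vehicle control libraries 30.5, 26.9 and 28.9, the CKI libraries 26.6, 23.9 and 25.4, the doxorubicin libraries 111, 102 and 114, and the combination libraries 67.9, 68.7 and 72.1. Both groups with 5-FU and both with doxorubicin lay above every other group of their line. DDIT3 rose 3.86-fold with 5-FU (log2 1.95, SE 0.119, adjusted p = 1.0e-07, and 2.11 without the first untreated library) and 6.51-fold with doxorubicin (log2 2.7, SE 0.0721, adjusted p = 3.5e-19). With CKI alone the values were 0.13 (adjusted p = 0.465) in MDA-MB-231, which became 0.29 (adjusted p = 0.0269) without the first untreated library, and 0.53 (SE 0.0772, adjusted p = 2.0e-06) in A431. The vehicle control was higher than untreated by 0.82 (SE 0.0764, adjusted p = 3.8e-08), and against the vehicle control the CKI value turned to -0.29 (SE 0.0721, adjusted p = 0.00138) while that of doxorubicin was 1.89. The exons of DDIT3 overlap those of MARS1 and MBD6, and without strand such reads cannot be told apart.

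TRIB3 encodes a pseudokinase that CHOP and ATF4 induce and that restrains both. It lies on chromosome 20 (343479 to 378203, plus strand, 4 exons). In A431 the untreated libraries held 113, 120 and 147 CPM, the vehicle control libraries 110, 118 and 134, the CKI libraries 226, 234 and 232, the doxorubicin libraries 50, 47.1 and 51.4, and the combination libraries 86.0, 77.6 and 79.7. CKI and doxorubicin thus lay on opposite sides of untreated with no overlap. TRIB3 fell with doxorubicin (log2 -1.39, SE 0.0864, adjusted p = 1.2e-12), and the CKI value of 0.77 (SE 0.0822, adjusted p = 1.8e-08) stayed under the fold threshold, which it passed with offsets for GC content and length (1.02). In MDA-MB-231 the untreated libraries held 57.8, 76.6 and 78.6 CPM, the CKI libraries 44.9, 43.6 and 44.3, the 5-FU libraries 58.6, 59.3 and 56.1, and the combination libraries 42.8, 40.6 and 42.0. Both groups with CKI lay below both without it. The log2 values were -0.69 (SE 0.0968, adjusted p = 1.8e-04) for CKI and -0.29 (SE 0.0958, adjusted p = 0.0206) for 5-FU, and -0.82 and -0.42 without the first untreated library.

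DDIT4 and SESN2 both encode stress-induced inhibitors of mTORC1, REDD1 and sestrin 2. DDIT4 lies on chromosome 10 (74033678 to 74035794, plus strand, 3 exons). In MDA-MB-231 its untreated libraries held 186, 310 and 322 CPM, the CKI libraries 223, 222 and 235, the 5-FU libraries 73.9, 75.3 and 71.7, and the combination libraries 109, 102 and 112. The first untreated library was the low one, and the CKI value was -0.28 with it and -0.49 (adjusted p = 1.7e-09) without it. In A431 the untreated libraries held 294, 271 and 311 CPM, the vehicle control libraries 157, 197 and 239, the CKI libraries 142, 150 and 139, the doxorubicin libraries 36.7, 41.0 and 42.9, and the combination libraries 38.6, 38.1 and 37.8. The fall with doxorubicin was 7.4-fold (log2 -2.89, SE 0.106, adjusted p = 8.2e-17), the largest called fold of the 10 genes between a drug and untreated cells. Against the vehicle control the doxorubicin value was -2.33. The fall with 5-FU was 3.71-fold (log2 -1.89, SE 0.158, adjusted p = 1.1e-06, and -2.10 without the first untreated library). DDIT4 also fell with CKI in A431 (log2 -1.12, SE 0.0972, adjusted p = 5.6e-10), but against the vehicle control, itself at -0.56 against untreated, this value was -0.56 and no longer called. It was -0.81 with offsets for GC content and length.

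SESN2 lies on chromosome 1 (28586029 to 28609002, plus strand, 10 exons) and is also known as a target of p53. In A431 the untreated libraries held 29.4, 26.8 and 30.2 CPM, the vehicle control libraries 36.1, 38.3 and 38.4, the CKI libraries 43.2, 49.2 and 48.9, the doxorubicin libraries 83.2, 81.6 and 82.1, and the combination libraries 58.7, 54.9 and 58.3. It rose with doxorubicin (log2 1.49, SE 0.066, adjusted p = 2.6e-15, and 1.09 against the vehicle control), opposite to DDIT4. The CKI value was 0.62 (SE 0.0675, adjusted p = 2.5e-08), or 0.22 against the vehicle control. In MDA-MB-231 the untreated libraries held 23.1, 33.2 and 36.6 CPM, the CKI libraries 19.6, 21.8 and 20.5, the 5-FU libraries 35.2, 39.7 and 36.3, and the combination libraries 21.4, 18.7 and 20.0. The values were -0.6 (SE 0.138, adjusted p = 0.00537) for CKI and 0.26 (SE 0.135, adjusted p = 0.119) for 5-FU, and -0.77 and 0.09 without the first untreated library.

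ASNS, PSAT1 and PHGDH make amino acids, ASNS asparagine from aspartate, PHGDH the entry step and PSAT1 the transamination step of serine synthesis. ASNS lies on chromosome 7 (97480989 to 97501854, minus strand, 13 exons). Its untreated MDA-MB-231 libraries held 127, 132 and 125 CPM, the CKI libraries 66.4, 63.9 and 64.8, the 5-FU libraries 50.8, 54.0 and 56.4, and the combination libraries 44.4, 43.2 and 45.2. In A431 the untreated libraries held 138, 155 and 145 CPM, the vehicle control libraries 185, 177 and 156, the CKI libraries 76.0, 75.2 and 82.4, the doxorubicin libraries 37.7, 35.8 and 39.1, and the combination libraries 48.5, 41.0 and 48.9. All 6 drug groups lay below the untreated libraries of their line. ASNS fell with 5-FU (log2 -1.25, SE 0.0586, adjusted p = 1.4e-08) and with doxorubicin (log2 -1.99, SE 0.0785, adjusted p = 3.2e-16). Its CKI values were almost equal, -0.98 (SE 0.0582, adjusted p = 2.5e-07) in MDA-MB-231 and -1.0 (SE 0.0749, adjusted p = 4.1e-11) in A431, and fell on either side of the fold threshold. The A431 call was lost under 5 other settings of the fit, at -0.97 to -0.89, and when the first or second CKI or the second or the third untreated library was left out, at -1.0 to -0.96. In MDA-MB-231 a call was gained when the first CKI or the third untreated library was left out, both at -1.0. Without the first untreated library the MDA-MB-231 values were -0.99 with CKI and -1.26 with 5-FU. Annotated pseudogenes of ASNS and of PSAT1 could share reads with them, and the exons of ASNS overlap those of an unnamed gene (ENSG00000284707).

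PSAT1 lies on chromosome 9 (80912041 to 80945009, plus strand, 9 exons). In MDA-MB-231 it held 259, 221 and 213 CPM untreated, 142, 146 and 142 with CKI, 63.9, 61.5 and 62.4 with 5-FU, and 72.7, 78.8 and 72.3 with both. In A431 it held 193, 208 and 209 CPM untreated, 259, 233 and 225 with the vehicle, 114, 115 and 117 with CKI, 70.2, 66.2 and 74.3 with doxorubicin, and 50.5, 47.1 and 54.9 with both. It fell with 5-FU (log2 -1.88, SE 0.076, adjusted p = 5.2e-09) and with doxorubicin (log2 -1.56, SE 0.0688, adjusted p = 2.3e-15, and -1.8 against the vehicle control). The CKI values were -0.7 (SE 0.0735, adjusted p = 2.4e-05) in MDA-MB-231 and -0.91 (SE 0.0672, adjusted p = 3.4e-11) in A431, and the latter was called against the vehicle control (-1.15). Without the first untreated MDA-MB-231 library the values there were -0.6 with CKI and -1.79 with 5-FU.

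PHGDH lies on chromosome 1 (120191034 to 120286841, plus strand, 12 exons). In MDA-MB-231 it held 28.6, 39.3 and 38.6 CPM untreated, 19.7, 17.5 and 17.7 with CKI, 17.8, 16.4 and 14.4 with 5-FU, and 7.15, 6.45 and 8.16 with both. In A431 it held 370, 360 and 401 CPM untreated, 309, 324 and 362 with the vehicle, 140, 155 and 146 with CKI, 118, 111 and 114 with doxorubicin, and 48.5, 44.5 and 51.1 with both. In each line the combination was the lowest group and did not overlap with either agent alone. PHGDH fell with 5-FU (log2 -1.13, SE 0.13, adjusted p = 1.5e-05), with doxorubicin (log2 -1.75, SE 0.0686, adjusted p = 2.8e-16) and with CKI in A431 (log2 -1.45, SE 0.0679, adjusted p = 9.9e-15). Against the vehicle control the values were -1.57 with doxorubicin and -1.28 with CKI. The 5-FU value was -1.26 without the first untreated library, and with scaling by library size alone it was -1.0 and no longer called. In MDA-MB-231 the CKI value was -0.97 (SE 0.129, adjusted p = 1.3e-04), and without the first untreated library it was -1.10 (adjusted p = 4.8e-11) and called.

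CHAC1 degrades glutathione, and VLDLR is a lipoprotein receptor also induced under ER stress. CHAC1 (chromosome 15, 41245160 to 41248710, plus strand, 3 exons) held 15 to 30.6 CPM over all 27 libraries, and most neighbouring groups in its order of levels overlapped. None of its values was called in any comparison. Against untreated they were -0.29 (adjusted p = 0.16) with CKI and -0.5 (SE 0.151, adjusted p = 0.0137) with 5-FU in MDA-MB-231, and without the first untreated library -0.47 (adjusted p = 2.9e-05) and -0.69 (adjusted p = 5.3e-08). In A431 they were -0.51 (SE 0.138, adjusted p = 0.00254) with CKI and -0.12 (adjusted p = 0.399) with doxorubicin, and with scaling by library size alone the last was 0.22. The widest spread lay in the untreated MDA-MB-231 libraries, at 17.5, 25.5 and 30.6 CPM, with the first one lowest.

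VLDLR (chromosome 9, 2621182 to 2660056, plus strand, 19 exons) was mainly a transcript of MDA-MB-231. There the untreated libraries held 40.1, 36.3 and 38.5 CPM, the CKI libraries 40.1, 34.8 and 40.6, the 5-FU libraries 14.1, 16.1 and 14.9, and the combination libraries 22.5, 21.9 and 23.7. It fell with 5-FU (log2 -1.35, SE 0.083, adjusted p = 1.1e-07, and -1.32 without the first untreated library), and its CKI value was -0.00 with that library and 0.03 without it. In A431 it was near the limit of detection, with 5, 2 and 3 counts in the untreated libraries, 10, 1 and 11 in the vehicle control, 6, 9 and 4 with CKI, 19, 19 and 14 with doxorubicin, and 12, 30 and 15 with both. The doxorubicin libraries lay above the untreated ones, and the ratio of summed counts per effective library size, 52 against 10 counts, was 4.39 (95% exact interval 2.21 to 9.69, which covers counting error only). The fitted log2 value was 2.07 (SE 0.582, adjusted p = 0.00257), and 1.06 (adjusted p = 0.0506) against the vehicle control. Within A431 VLDLR passed the filter on low counts through the groups with doxorubicin. It was filtered out where untreated cells were fitted with the vehicle control or the CKI group alone. Its rise with doxorubicin is therefore not independent of the filter. The exons of VLDLR overlap those of VLDLR-AS1, which cannot be told apart without strand.

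**Figure D2:**
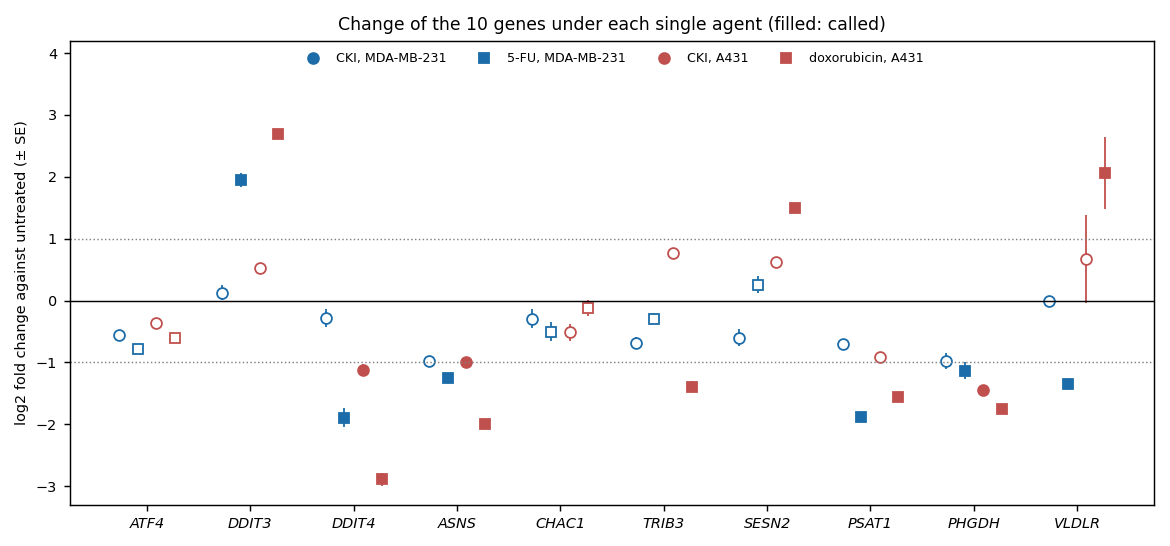
Log2 fold change against untreated (error bars, SE of edgeR's fit) of the 10 genes with each single agent, blue for MDA-MB-231 and red for A431, circles for CKI and squares for 5-FU or doxorubicin, filled where called. DDIT3 stands at 1.95 with 5-FU and 2.7 with doxorubicin, while DDIT4, ASNS, PSAT1 and PHGDH stand below -1 with both.

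Counted by comparison, 5-FU gave 1 risen and 5 fallen genes of 10 in MDA-MB-231, against 6.01% of the 13999 genes tested that rose and 7.31% that fell. The median of the 10 was -0.96, against -0.00 over all genes. Doxorubicin in A431 gave 3 risen (DDIT3, SESN2 and VLDLR) and 5 fallen (ASNS, DDIT4, PHGDH, PSAT1 and TRIB3), against 23.0% and 14.3% of 15881 genes, with a median of -1.0 against 0.02. The 3 risen of 10 were near the share of all genes, and VLDLR among them passed the filter through the doxorubicin groups. Under scaling by library size alone the split of all calls with doxorubicin moved from 61.6% to 78.3% higher, and that with 5-FU from 45.1% to 59.8%. CKI in MDA-MB-231 gave no called gene of the 10, against 3.76% higher and 2.21% lower. By edgeR, 6 of the 10 had an adjusted p under 0.05 there (6 an unadjusted one), DESeq2 also called none, and the median was -0.57 against -0.01. Leaving out the first untreated library gave 1 call (PHGDH), and leaving out the first CKI library gave 2 (ASNS and PHGDH). CKI in A431 gave 3 fallen genes and none risen, against 10.4% and 12.0% of all genes, with a median of -0.44 against 0.0. The vehicle control gave none against untreated, with backgrounds of 1.05% higher and 1.5% lower, although 7 of the 10 had an edgeR adjusted p under 0.05 (7 an unadjusted one), and DESeq2 also called none. Without the second vehicle library VLDLR was called, at 1.57. Changes between vehicle control and untreated went with GC content (Spearman's rho -0.58 over 15843 genes), and the part of this in the values of the 10 genes, whose own GC content ranged from 42.5% to 61.5%, was not tested beyond the offsets for it. Markers of the epidermal lineage moved with doxorubicin in A431 (2 of 7 rose and 4 fell), and their part in the result was not tested.

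Both combinations were compared with each agent alone, which asks what CKI adds to a cytotoxic drug and the reverse. Against 5-FU, CKI plus 5-FU lowered PHGDH (log2 -1.16, SE 0.141, adjusted p = 3.4e-05) as the 1 called gene of 10, against 5.26% higher and 4.51% lower over all genes. SESN2 was at -0.89 (SE 0.138, adjusted p = 2.2e-04), VLDLR at 0.6 (SE 0.0837, adjusted p = 1.0e-04) and DDIT4 at 0.55 (SE 0.154, adjusted p = 0.0108). Against CKI, the combination gave a rise of DDIT3 (log2 1.89, SE 0.118, adjusted p = 1.9e-06) and falls of DDIT4 (-1.06, SE 0.154) and PHGDH (-1.32, SE 0.141), against 1.26% higher and 2.54% lower. Changes in that comparison went with GC content (rho -0.52 over 13965 genes), and with offsets for it DDIT4 was at -0.87 (-0.99 with library size alone), no longer called, and PSAT1, at -0.93 without them, was at -1.11.

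In A431, CKI plus doxorubicin against doxorubicin lowered PHGDH (log2 -1.23, SE 0.071, adjusted p = 9.8e-13) as the 1 called gene of 10, against 6.89% higher and 8.03% lower over all genes. DDIT3 was at -0.63 (SE 0.0624, adjusted p = 9.0e-09), SESN2 at -0.5 (SE 0.0617, adjusted p = 2.5e-07) and TRIB3 at 0.73 (SE 0.0864, adjusted p = 1.3e-07). Against CKI, the combination raised DDIT3 (1.54, SE 0.0684) and VLDLR (1.5, SE 0.493, from 19 to 57 summed counts) and lowered DDIT4 (-1.83, SE 0.104), PHGDH (-1.53, SE 0.071), TRIB3 (-1.42, SE 0.0836) and PSAT1 (-1.1, SE 0.0698), which was at -0.89 and not called with scaling by library size alone. The backgrounds were 16.6% higher and 9.06% lower, and VLDLR again passed the filter through the groups with doxorubicin. Without the second combination library, whose count of VLDLR was 30, the VLDLR value was 1.01 (adjusted p = 0.106).

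The interaction asks whether the effect of CKI differs with and without the drug, and is the log2 effect of CKI beside the drug minus its effect alone. With doxorubicin it was called for 4 of 10 genes, 2 in each direction, against 8.56% higher and 10.9% lower. ASNS (1.32, SE 0.109, adjusted p = 7.7e-10) and DDIT4 (1.06, SE 0.144, adjusted p = 1.4e-06) were lowered by CKI alone and not lowered further beside doxorubicin, where the CKI values were 0.32 and -0.05. DDIT3 (-1.16, SE 0.0992, adjusted p = 1.3e-09) and SESN2 (-1.12, SE 0.0915, adjusted p = 6.1e-10) lay above untreated with CKI alone and below doxorubicin beside it. The DDIT4 call was lost with library size alone (0.92), with the offsets for GC content and length (0.99) and without the first doxorubicin library (0.99). With the vehicle control in place of untreated, 1 of the 4 remained called, ASNS at 1.57, and DDIT3 was at -0.34, DDIT4 at 0.51 and SESN2 at -0.72. With 5-FU none of the 10 was called, against 3.04% higher and 3.81% lower, although 5 had an edgeR adjusted p under 0.05 (5 an unadjusted one), and DESeq2 also called none. The values furthest from 0 were 0.95 (SE 0.105, adjusted p = 6.5e-05) for PSAT1, which was 0.86 without the first untreated library and 1.0 and called without the third, and 0.83 (SE 0.216, adjusted p = 0.0128) for DDIT4, which was 1.04 and called without the first untreated library.

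**Figure D3:**
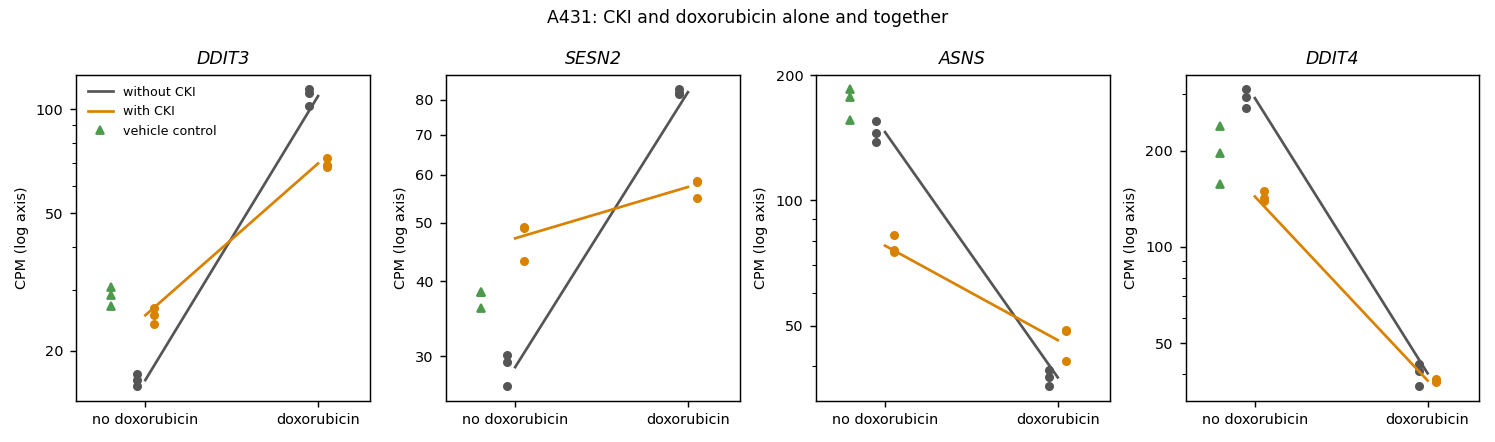
CPM (log axis, a separate scale in each panel) of DDIT3, SESN2, ASNS and DDIT4 in A431 without and with doxorubicin, grey without CKI and orange with it, with points for the 3 libraries, lines joining group means and green triangles for the vehicle control. The lines of DDIT3, SESN2 and ASNS cross, and the interaction was -1.16, -1.12 and 1.32 in them and 1.06 in DDIT4.

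Between the untreated lines, 2 of 10 genes were called, against 22.5% of 14848 genes higher in A431 and 20.4% lower. PHGDH was 11.0-fold higher in A431 (log2 3.46, SE 0.112, adjusted p = 5.9e-12, and 3.33 without the first untreated MDA-MB-231 library). VLDLR was lower in A431 (log2 -7.51, SE 0.2), where 10 counts in 3 libraries stood against 2337, a ratio of 195 in favour of MDA-MB-231 (95% exact interval 106 to 408). DDIT3 was at 0.8 (SE 0.13, adjusted p = 7.7e-05) and TRIB3 at 0.89 (SE 0.114, adjusted p = 8.2e-06), or 0.96 and 0.77 without that library. The effect of CKI differed between the lines for TRIB3 (interaction 1.47, SE 0.162, adjusted p = 8.5e-06) and SESN2 (1.22, SE 0.186, adjusted p = 1.3e-04), both lower than untreated in MDA-MB-231 and higher in A431. The backgrounds were 8.87% higher and 9.62% lower, so 2 called of 10 was near the share of all genes in either direction. Without the first untreated MDA-MB-231 library the TRIB3 and SESN2 values were 1.59 and 1.38. With the vehicle control replacing untreated A431 cells SESN2 was at 0.82 and not called, and TRIB3 stayed called at 1.53. ASNS, with an interaction of -0.01 (SE 0.0966, adjusted p = 0.977), had similar CKI values in both lines.

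Other genes of the pathway were taken from lists, whose counts are read against the shares of all genes given above. In A431 the single agents were compared with untreated cells here, and the vehicle control served as the control for the 10 genes alone. Genes of the lists were tested in the main fits alone, so calls close to the fold threshold may not hold under other settings. Scaling by library size alone moved the median of all genes by 0.13 with 5-FU, 0.11 with CKI in A431 and 0.34 with doxorubicin. Of 12 genes for eIF2 kinases, phosphatase subunits and eIF2 or eIF2B subunits, 1 rose with 5-FU, near the 6.01% of all genes. In A431, 1 rose with the vehicle control (1.05%). With CKI 2 rose and 1 fell, shares near those of all genes (12.0% and 10.4%). With doxorubicin 2 rose and 1 fell, shares below those of all genes (23.0% and 14.3%). PPP1R15A, the GADD34 subunit that reverses eIF2 phosphorylation, rose with 5-FU (log2 1.27, SE 0.0565, adjusted p = 9.7e-09). It also rose with doxorubicin in A431 (2.41, SE 0.0596), with CKI (1.89, SE 0.0589) and with the vehicle control (2.24, SE 0.0594). Its A431 libraries held 109, 110 and 114 CPM untreated, 524, 511 and 535 with the vehicle, 405, 456 and 462 with CKI and 613, 574 and 619 with doxorubicin. The vehicle control was thus between CKI and doxorubicin. EIF2AK3, which encodes PERK, rose with CKI (1.53, SE 0.0813) and doxorubicin (1.28, SE 0.0823) in A431, where EIF2B3 fell with both (-1.0, SE 0.0786, and -1.59, SE 0.0822). The vehicle control was at 0.51 (SE 0.088) for EIF2AK3 and 0.11 (SE 0.0742) for EIF2B3.

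Of 7 bZIP partners and other stress transcription factors, 1 rose with 5-FU (6.01% of all genes), and 1 rose with the vehicle control (1.05%), 2 with CKI (12.0%) and 3 with doxorubicin (23.0%) in A431. The largest change in A431 was that of ATF3. Its untreated libraries held 12.2, 10.6 and 13.9 CPM, the vehicle control libraries 491, 423 and 384, the CKI libraries 313, 408 and 381, and the doxorubicin libraries 147, 151 and 155. Vehicle and CKI overlapped. The log2 values against untreated were 5.16 (SE 0.116), 4.81 (SE 0.115) and 3.6 (SE 0.113). In MDA-MB-231 ATF3 rose with 5-FU (1.34, SE 0.0688, adjusted p = 2.7e-08). NUPR1 was the 1 gene of the 7 that fell with CKI in MDA-MB-231 (-1.15, SE 0.0883, against 2.21% of all genes) and rose with it in A431 (1.65, SE 0.107). ATF5 rose with doxorubicin (1.88, SE 0.0803) and was lowered by CKI beside it (-1.48, SE 0.077).

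Amino acid genes outside the 10 were taken as 3 lists, for synthesis, transfer RNA charging and transport. Of amino acid and one-carbon synthesis genes, 3 of 10 tested fell with 5-FU, against 7.31% of all genes, among them PYCR1 of proline synthesis (-1.65, SE 0.14) and GPT2 (-1.05, SE 0.127), with a list median of -0.21. In A431, 5 of 11 fell with doxorubicin, against 14.3%, among them PYCR1 (-3.1, SE 0.139) and CBS (-1.87, SE 0.0799), and 2 with CKI, against 10.4%, SHMT2 (-1.29, SE 0.0638) and PYCR1 (-1.01, SE 0.12), with medians of -0.52 and -0.7. The vehicle control was at -0.3 (SE 0.117) for PYCR1, -0.07 (SE 0.0621) for SHMT2 and -0.16 (SE 0.0744) for CBS. Of 12 aminoacyl-tRNA synthetases, 2 fell with 5-FU (MARS1, -1.12, and CARS1, -1.04), against 7.31% of all genes, and 2 with doxorubicin (EPRS1, -2.0, and GARS1, -1.33), a share near the 14.3% of all genes. With CKI the medians of the 12 were -0.29 in MDA-MB-231 and -0.33 in A431.

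Of 8 amino acid transporters, 1 rose with CKI in MDA-MB-231 (3.76% of all genes) and 1 fell with 5-FU (7.31%). In A431, 1 rose and 1 fell with CKI (12.0% and 10.4%), shares near those of all genes, and 3 fell with doxorubicin (14.3%). SLC7A11, the cystine importer, rose with CKI against untreated cells in both lines. In A431 the vehicle control was also above untreated, at 0.49 (SE 0.0773). Its MDA-MB-231 libraries held 48.6, 48.5 and 52.6 CPM untreated and 109, 108 and 110 with CKI (log2 1.12, SE 0.0633, adjusted p = 1.7e-07). Its A431 libraries held 44.4, 49.6 and 53.3 CPM untreated, 132, 133 and 132 with CKI (1.34, SE 0.0761) and 10.9, 13.1 and 10.5 with doxorubicin (-2.12, SE 0.0898). SLC7A5, a subunit of the large neutral amino acid exchanger, fell with doxorubicin (-2.48, SE 0.117) and with CKI (-1.04, SE 0.111) in A431, where the vehicle control was at -0.31 (SE 0.11). SLC6A9 fell with 5-FU (-2.18, SE 0.201) in MDA-MB-231. Of 12 other ATF4 or CHOP targets tested, 5 rose and 1 fell with doxorubicin (23.0% and 14.3% of all genes), 3 rose and 2 fell with CKI in A431 (12.0% and 10.4%), and 1 rose and 1 fell with 5-FU (6.01% and 7.31%), the last near the shares of all genes. In MDA-MB-231, 1 rose with CKI (3.76%). CDKN1A, the cell cycle inhibitor p21 and also a p53 target, rose with 5-FU (1.54, SE 0.0692), doxorubicin (1.72, SE 0.0572) and CKI in A431 (2.55, SE 0.0583), and EIF4EBP1 fell with doxorubicin (-2.94, SE 0.0805) and CKI (-1.58, SE 0.0755) in A431.

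**Figure D4:**
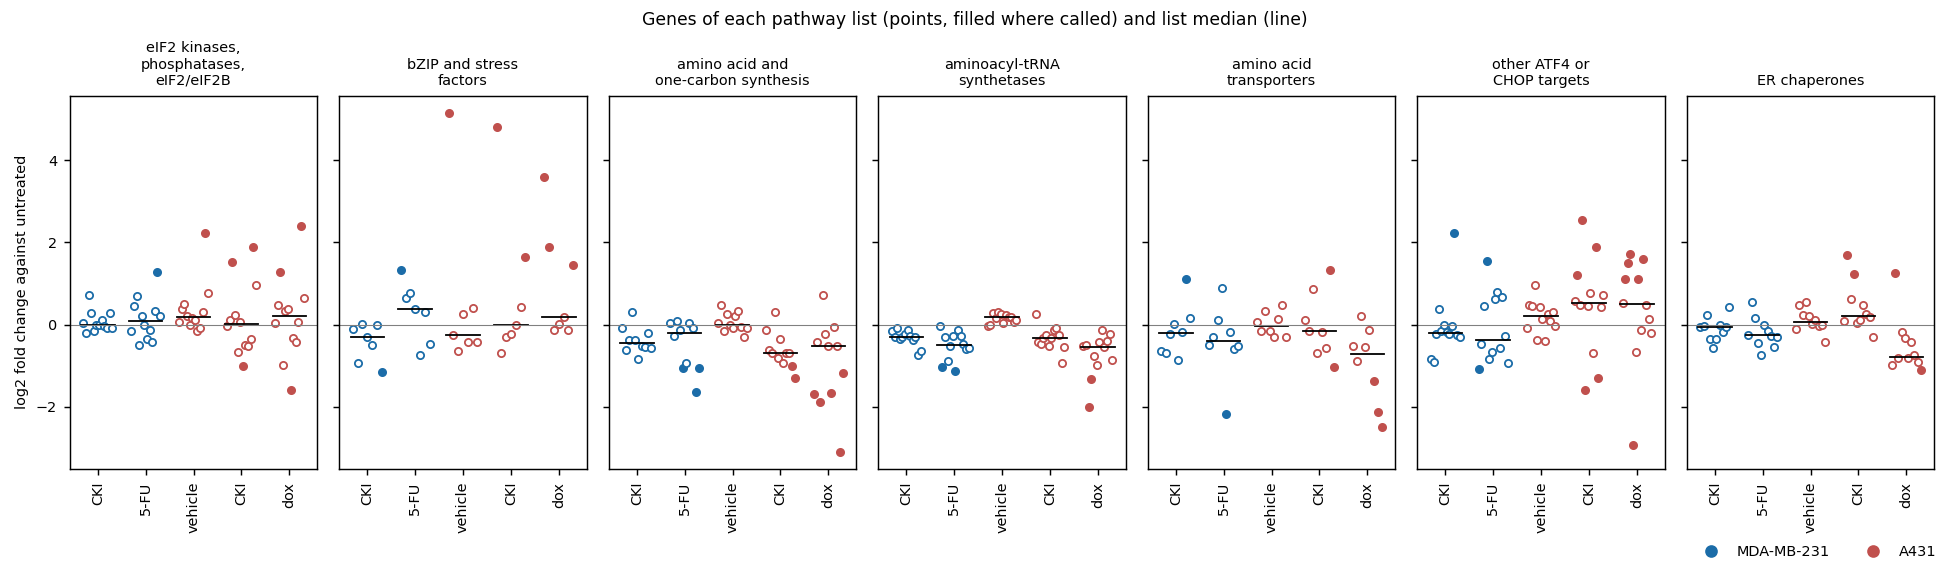
Log2 fold change against untreated for the genes of 7 pathway lists (points, filled where called, with a line at the list median), blue for MDA-MB-231 and red for A431, in the order CKI, 5-FU, vehicle control, CKI and doxorubicin. The highest points are ATF3 with the vehicle control (5.16) and CKI (4.81) in A431, and the lowest is PYCR1 with doxorubicin (-3.1).

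The genes whose levels over the 9 groups were most like those of ATF4 and DDIT3 were found by the root mean square difference of group means of log2 CPM, centred within each line, over 13337 genes. Nearest to ATF4 were CAMKK2 (0.106), SLC25A6 (0.116) and VPS35L (0.125). Nearest to DDIT3 were TMCC1-DT (0.353), IFRD1 (0.364) and ZNF441 (0.365). None of the other 9 genes was among the nearest to ATF4, with CHAC1 closest at 0.272 (rank 640) and DDIT3 furthest at 1.299. ASNS was at 0.431 and PSAT1 at 0.475. The measure counts the size of changes as well as their direction. A gene that moves with ATF4 by larger steps therefore also stands apart, and likeness of direction alone was not tested.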

How the data were processed

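RNA from 27 libraries of MDA-MB-231 and A431 cells was sequenced as unstranded paired-end reads. The authors deposited raw counts per gene, made from reads trimmed with Trim Galore 0.3.7 and aligned to hg19 with STAR 2.5.3a. The counting tool and annotation are not given in the sources used here, so genes that overlap or have close copies are uncertain. Groups and replicate numbers came from the labels. Symbols were matched through Entrez identifiers (RefSeq) for 24422 of 24566 rows, and positions, lengths and GC content came from GENCODE on GRCh37.

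Tests used edgeR 4.0.16 in R 4.3.3 (TMM, filterByExpr and the quasi-likelihood functions glmQLFit and glmQLFTest), in 1 fit per line and, between lines, 1 fit of the untreated and CKI groups, with p-values adjusted over all genes tested. SE is the absolute log2 fold change divided by the square root of F. CPM between groups used TMM over all libraries, and similarity used log2 CPM with a prior count of 2. Fits were tested before use on simulated counts with planted changes and a fixed spread. The simulation held no outlying library and no trend with GC content, so it does not cover those features of the data. Intervals and detection limits cover counting error only. Alternatives were DESeq2 1.42.0, library size alone, no filter, the compared groups alone, a replicate block, lowess offsets (span 0.3) for GC content and length, the vehicle control as the control, and leaving out each library.

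The 10 genes and the lists were chosen with earlier results of these data known. Genes named from a list were the 2 called genes of largest change per direction and comparison. All named lists are given, those of ER chaperones in the closing section. Other treatments of the study were not analysed here.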

Additional observations from a re-analysis of the deposited data

Results flagged for a closer look

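Of edgeR's tests of whether the effect of CKI on the 10 genes differed with doxorubicin or between the lines, 6 were called, with SESN2 in both. With doxorubicin 4 of 10 were called, against 8.56% of all genes higher and 10.9% lower. Between the lines 2 of 10 were called, both higher, against 8.87% higher and 9.62% lower. Counted in either direction, this share was near that of all genes. In A431, the effect of CKI beside doxorubicin minus its effect alone was -1.16 (SE 0.0992, adjusted p = 1.3e-09) for DDIT3, -1.12 (SE 0.0915, adjusted p = 6.1e-10) for SESN2, 1.06 (SE 0.144, adjusted p = 1.4e-06) for DDIT4 and 1.32 (SE 0.109, adjusted p = 7.7e-10) for ASNS. Between the lines, the effect of CKI in A431 minus that in MDA-MB-231 was 1.47 (SE 0.162, adjusted p = 8.5e-06) for TRIB3 and 1.22 (SE 0.186, adjusted p = 1.3e-04) for SESN2. In each case the 3 libraries of a group stood apart from the 3 of the group they were compared with, except for DDIT4, whose doxorubicin libraries with and without CKI overlapped.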

How the results depend on the processing

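Over the 10 genes and 13 comparisons, leaving out 1 library in turn kept the direction and the side of the thresholds in 947 of 960 values, with 6 calls lost, 7 gained and none reversed. The other alternatives kept it in 897 of 938, with 21 lost, 8 gained and 12 reversed. A further 46 sign changes, in 19 results, were between values whose adjusted p missed 0.05 on both sides, and were not counted as reversed (largest size 0.68).

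Offsets for GC content and length, without and with the replicate block, reversed CKI plus 5-FU against CKI for TRIB3 (0.23 in both) and SESN2 (0.23 in both) and the vehicle control against untreated for TRIB3 (0.30 and 0.31) and PHGDH (0.09 in both). With the block they reversed CKI plus doxorubicin against doxorubicin for DDIT4 (0.18) and CHAC1 (0.22). With the vehicle control as the control, DDIT3 with CKI in A431 was -0.29 and SESN2 between the lines 0.34. The cause was not tested.

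Of the counts of called genes among the 10, CKI in MDA-MB-231 went from 0 to 1 with the offsets, without and with the replicate block, and from 0 to 2 when libraries were left out. The CKI by 5-FU interaction and the vehicle comparison ranged from 0 to 1 when libraries were left out. With the vehicle control, the interactions with doxorubicin and with cell line each had 1 call. Over all genes, CKI plus 5-FU against CKI gave 342 calls with the offsets and 340 with the block added (533 without either). The vehicle control gave 243, 233 and, with the compared groups alone, 263 (404 otherwise). CKI plus doxorubicin against CKI gave 6171 without the filter (4077 with it), where more genes were tested.

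Scaling by library size alone moved the median of all genes by 0.13 with 5-FU, 0.11 with CKI in A431, 0.34 with doxorubicin, 0.21 for CKI plus doxorubicin against CKI, and -0.14 for the doxorubicin interaction. It moved the share of higher calls to 45.8%, 76.7% and 33.0% (from 33.2%, 64.7% and 44%) for CKI plus 5-FU and CKI plus doxorubicin against CKI and for the doxorubicin interaction. The offsets moved it from 41.1% to 62.6% for the vehicle control.

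The labels do not say whether same-numbered libraries belong together. No comparison had all 3 correlations of their deviations over 0.1 (range -0.24 to 0.12), which cannot show that they shared no culture or batch. With the replicate block alone no call among the 10 changed, and 6 remained called with 5-FU and 8 with doxorubicin. Depth limits VLDLR in A431, where 1 to 30 counts per library were read.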

Other observations

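The 10 genes for ER chaperones and ER quality control, which belong mainly to the ATF6 and XBP1 branches of the unfolded protein response and not to the ATF4 list, were also counted. With CKI in A431, 2 of 10 rose (12.0% of all genes), the co-chaperone DNAJB9 (log2 1.69, SE 0.11, adjusted p = 3.3e-12) and HERPUD1 (1.23, SE 0.0772, adjusted p = 2e-12), with a list median of 0.21 against 0.0 over all genes. With doxorubicin DNAJB9 rose (1.25, SE 0.113) and SDF2L1 fell (-1.1, SE 0.107), 1 gene each way against 23.0% and 14.3% of all genes, and the median was -0.78. CKI plus doxorubicin against CKI gave 8 fallen of 10 and a median of -1.14, with PDIA4, a disulfide isomerase, at 618, 630 and 642 CPM with CKI and 200, 191 and 192 with both (-1.61, SE 0.0536). The background there was 9.06% lower. The effect of CKI differed between the lines for DNAJB9 (1.74, SE 0.228, adjusted p = 3.6e-05) and HERPUD1 (1.59, SE 0.136, adjusted p = 9.8e-07).

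STC2, a secreted glycoprotein listed among ATF4 targets, lay at 76.9, 81.3 and 92.8 CPM in untreated A431 and at 0.261, 0.415 and 1.13 CPM in untreated MDA-MB-231. With CKI it fell in A431 (-1.31, SE 0.0721) and rose in MDA-MB-231 to 3.29, 2.93 and 2.37 CPM (2.22, SE 0.355, adjusted p = 0.00047). The interaction with cell line was -3.53 (SE 0.344, adjusted p = 3e-06). In the untreated lines, HYOU1 (-1.37, SE 0.135) and DNAJB9 (-1.25, SE 0.168) were lower in A431 and SDF2L1 was higher (1.53, SE 0.14), and the first untreated MDA-MB-231 library was the outermost of its group for all 3.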
